A study of Mus musculus with 4 samples.

Results

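The genes described here are 8 ubiquitin regulators of NF-kB signalling, namely Tnfaip3 (A20), Tnip1, Tnip2, Cyld, Birc2, Birc3, Traf1 and Traf2, followed across 4 Affymetrix arrays of mouse bone marrow neutrophils. They were chosen by name: every probe set whose annotated gene symbol equals 1 of these 8 was taken, which gave 14 of the 45101 probe sets on the array and 8 of the 18193 genes named in all. Of the 14 probe sets, 8 exceeded the detection floor, the 60th percentile of all values, on every array and 13 on at least 1, while 1 Cyld probe set did so on none. The 4 groups were LPS-treated (3 h) and unstimulated neutrophils of miR-125a-/- knockout mice, and LPS-treated (3 h) and unstimulated neutrophils of miR-125a+/+ wild-type mice. All mice were C57BL/6 and 8 weeks old, all cells were enriched from marrow with magnetic beads and cultured with serum, and lipopolysaccharide (LPS) is the bacterial cell wall product sensed by Toll-like receptor 4. Each array carried RNA pooled from 3 experiments, and the labels do not settle whether the unstimulated cells spent the 3 h in culture. With 1 array per group there is no replicate error, and no statistical test was made of any difference, so the small number of arrays limits how precisely any difference is known.

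NF-kB is held inactive in resting cells by IkB proteins and is released when receptors for LPS or TNF assemble signalling complexes on chains of ubiquitin. Ligases such as the products of Birc2, Birc3 and Traf2 build such chains, and the products of Tnfaip3 and Cyld take them apart or edit them. Several of these regulators are themselves NF-kB target genes, so that they act as feedback on the signal that raises them. Tnfaip3 is also a reported target of the miR-125 family of microRNAs, and one question put to these arrays is therefore whether its transcript differs in cells without miR-125a.

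A microRNA recognises transcripts mainly through its seed, bases 2 to 8, shown in capitals in the mature sequences below (5′ to 3′, RefSeq, GRCm38.p6). They are shown because both arms of miR-125a come from the deleted gene, while miR-125b-5p and miR-351-5p come from other genes.
mmu-miR-125a-5p: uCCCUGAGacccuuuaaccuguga
mmu-miR-125a-3p: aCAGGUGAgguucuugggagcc
mmu-miR-125b-5p: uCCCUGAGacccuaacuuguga
mmu-miR-351-5p: uCCCUGAGgagcccuuugagccug
The 5p arm of miR-125a shares its seed with miR-125b-5p, which 2 genes encode, and with miR-351-5p, and its 3p arm has another seed. In all, 6 of 1738 mature entries in the RefSeq table, with 5 different sequences, carried the seed of miR-125a-5p. The array annotation used here assigns no probe set to any of these microRNAs, so neither their levels nor the genotype labels could be checked from these values.

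The windows around the annotated start sites of 4 of the genes follow, from 250 bases before the start to 50 bases after it, 5′ to 3′ on the gene's own strand (RefSeq, GRCm38.p6). They are shown to set 2 strongly LPS-responsive genes whose window holds the NF-kB consensus (Tnfaip3, Tnip1) beside 1 such gene whose window does not (Traf1) and 1 gene short of 2-fold whose window does (Cyld). Capitals mark matches on either strand to the NF-kB consensus GGGRNNYYCC, where R is A or G, Y is C or T and N is any base.
Tnfaip3, chr10:19015361-19015660, minus strand: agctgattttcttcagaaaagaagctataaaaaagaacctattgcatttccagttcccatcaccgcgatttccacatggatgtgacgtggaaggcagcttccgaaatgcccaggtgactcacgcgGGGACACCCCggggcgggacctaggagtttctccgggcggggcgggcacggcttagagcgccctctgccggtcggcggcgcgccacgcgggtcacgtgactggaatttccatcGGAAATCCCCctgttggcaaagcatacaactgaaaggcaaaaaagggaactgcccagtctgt
Tnip1, chr11:54962891-54963190, minus strand: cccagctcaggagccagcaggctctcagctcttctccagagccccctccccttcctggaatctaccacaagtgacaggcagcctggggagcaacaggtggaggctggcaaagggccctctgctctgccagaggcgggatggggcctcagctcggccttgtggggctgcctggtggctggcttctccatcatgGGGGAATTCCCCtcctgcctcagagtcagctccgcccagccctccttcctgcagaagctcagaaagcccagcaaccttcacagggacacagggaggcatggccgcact
Traf1, chr2:34961723-34962022, minus strand: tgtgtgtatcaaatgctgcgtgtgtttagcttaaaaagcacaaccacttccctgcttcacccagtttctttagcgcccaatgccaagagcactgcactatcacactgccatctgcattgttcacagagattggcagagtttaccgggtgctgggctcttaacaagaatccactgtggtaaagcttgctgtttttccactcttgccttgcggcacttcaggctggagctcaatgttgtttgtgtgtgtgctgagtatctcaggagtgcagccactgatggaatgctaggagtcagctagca
Cyld, chr8:88696778-88697077, plus strand: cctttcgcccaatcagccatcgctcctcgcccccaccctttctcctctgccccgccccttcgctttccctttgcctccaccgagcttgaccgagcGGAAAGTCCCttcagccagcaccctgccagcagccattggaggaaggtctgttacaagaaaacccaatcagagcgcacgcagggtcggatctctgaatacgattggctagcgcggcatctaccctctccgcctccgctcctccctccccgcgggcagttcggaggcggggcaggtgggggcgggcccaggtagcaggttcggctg
The Tnfaip3 window held GGGACACCCC from 125 to 116 bases before the start and GGAAATCCCC from 12 to 3 bases before it. In Tnip1 the run GGGGAATTCCCC, from 58 to 47 bases before the start, consists of 3 overlapping matches, and in Cyld GGAAAGTCCC lay from 155 to 146 bases before the start. Of 32851 promoter windows of this length in the table, 8.46% held a match. A second annotated start of Tnfaip3 and the windows of Tnip2, Birc2, Birc3 and Traf2 held none. A match here describes letters and not binding, and no match in 300 bases says nothing of sites elsewhere.

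Cell type markers and array quality were checked on each array. All 13 matched neutrophil markers of 15 listed exceeded the floor on every array, with log2 signals between 10.86 and 16.20. Of the matched B cell markers 5 of 7, and of the T and NK cell markers 5 of 6, lay below the floor on all 4 arrays. The exceptions were Cd3d, at 9.35 to 9.92, Cd79b, at 7.80 to 8.18, and Vpreb3, at 6.42 to 7.01. Of 11 matched monocyte and macrophage markers, 8 exceeded the floor on each unstimulated array and 10 on each LPS array. Among them, F13a1 stood at 13.97 and Csf1r at 11.80 in unstimulated wild-type cells. Per array, 2 to 5 of 7 eosinophil, basophil and mast cell markers and 1 to 4 of 6 erythroid markers exceeded it. These lists therefore do not show that other cells were absent. Between 37.8% and 41.5% of probe sets per array exceeded the floor, which lay at 6.80 on the log2 scale. The log2 signal of the 3′ probe set minus that of the 5′ probe set lay between 0.16 and 0.23 for beta-actin and between -0.12 and 0.01 for Gapdh over the 4 arrays.

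The first comparison asks which of the 8 regulators respond to LPS, in cells without and with miR-125a. After LPS, 5 of the 8 genes were higher by at least 2-fold in knockout cells (Tnip1, Traf1, Tnfaip3, Birc3 and Traf2), 1 was lower (Tnip2), and Cyld and Birc2 were neither. The same 5 were higher and the same 1 lower in wild-type cells. Over all measured genes, 6.62% were higher and 7.99% lower by this rule in knockout cells, and 7.29% were higher and 9.69% lower in wild-type cells. The median log2 difference of the 8 genes was 1.51 in knockout cells and 1.53 in wild-type cells, beside -0.05 and -0.03 for all measured genes. Because the arrays hold pooled bulk RNA, fewer cells of a type and less RNA per cell cannot be told apart.

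**Figure D1:**
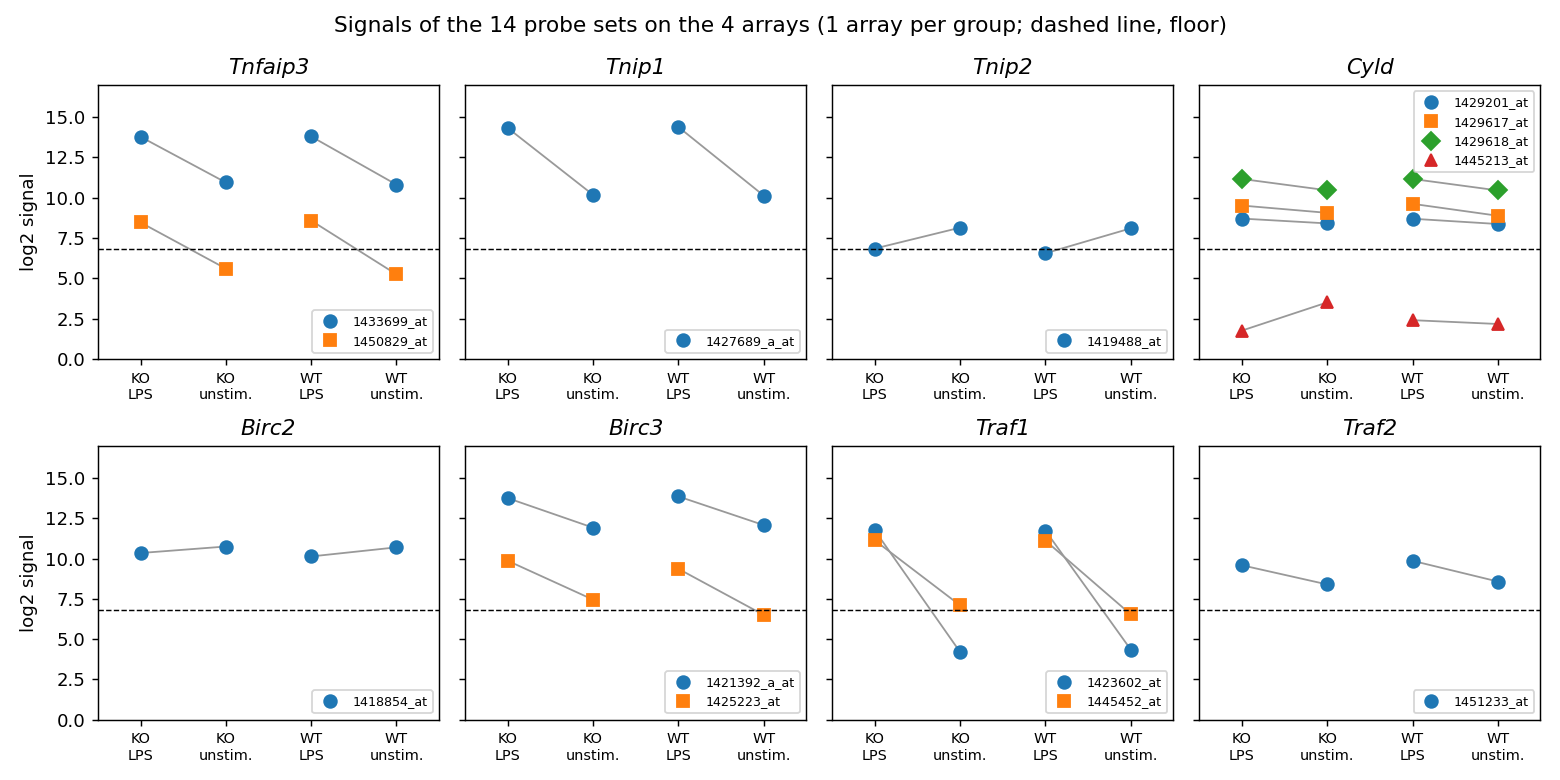
Log2 signal (vertical axis) of each of the 14 probe sets on the LPS and unstimulated arrays of knockout (KO) and wild-type (WT) cells, 1 panel per gene and 1 symbol per probe set; lines join the arrays of a genotype and the dashed line is the floor of 6.80. Tnfaip3, Tnip1, Birc3, Traf1 and Traf2 stand higher on both LPS arrays, Tnip2 lower.

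The A20 gene and its partner Tnip1 were higher after LPS, and the related Tnip2 was lower. Tnfaip3, the ubiquitin-editing enzyme that ends NF-kB signalling, had log2 signals of 13.79 after LPS and 10.95 unstimulated in knockout cells, and 13.80 after LPS and 10.82 unstimulated in wild-type cells. The LPS arrays are both high and the unstimulated arrays both low, a 7.14-fold difference in knockout cells and a 7.93-fold difference in wild-type cells. The second Tnfaip3 probe set was below the floor on both unstimulated arrays and stood at 8.47 after LPS in knockout cells and 8.59 after LPS in wild-type cells, which gives log2 differences of at least 1.68 and at least 1.79.

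Tnip1 encodes ABIN-1, which binds A20 and ubiquitin chains and brings the enzyme to its substrates. Its only probe set had log2 signals of 14.33 after LPS and 10.19 unstimulated in knockout cells, and 14.40 after LPS and 10.14 unstimulated in wild-type cells. It was thus 17.7-fold higher after LPS in knockout cells, the 17th highest difference of 9578 measured genes, and 19.1-fold higher in wild-type cells, the 19th highest of 9507.

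Tnip2 encodes ABIN-2, a relative of ABIN-1 that also binds A20 and is part of the complex of the kinase Tpl2. Its probe set had 6.85 after LPS and 8.15 unstimulated in knockout cells, and 6.56 after LPS and 8.10 unstimulated in wild-type cells. Here the unstimulated arrays are the high ones: Tnip2 was 2.46-fold lower after LPS in knockout cells and at least 2.47-fold lower in wild-type cells, where the LPS signal lay under the floor. The LPS signal in knockout cells lay just above the floor, so both LPS values of Tnip2 lie at the limit of detection used here.

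Cyld, the deubiquitinase that removes activating ubiquitin chains from TRAF proteins and other adaptors, moved less. The probe set that represents it, the one with the highest mean signal as for every gene here, had 11.17 after LPS and 10.47 unstimulated in knockout cells, and 11.17 after LPS and 10.46 unstimulated in wild-type cells. The differences, 1.63-fold and 1.64-fold, fell short of the 2-fold rule in both genotypes. The 2 other Cyld probe sets above the floor gave log2 differences of 0.30 and 0.45 in knockout cells and of 0.33 and 0.74 in wild-type cells, all higher after LPS and all under 2-fold. The fourth Cyld probe set stayed between 1.76 and 3.51 and was not measured.

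Birc2 and Birc3 encode the ubiquitin ligases cIAP1 and cIAP2, which mark receptor-bound RIPK1 with ubiquitin. In the GRCm38.p6 gene table both lie on chromosome 9 with 0 annotated genes between them. Birc3 had 13.75 after LPS and 11.92 unstimulated in knockout cells, and 13.85 after LPS and 12.08 unstimulated in wild-type cells, in the probe set that represents it. That is 3.56-fold higher after LPS in knockout cells and 3.43-fold higher in wild-type cells. The second Birc3 probe set had 9.86 after LPS and 7.45 unstimulated in knockout cells, and 9.37 after LPS and 6.51 unstimulated in wild-type cells, with log2 differences of 2.41 and at least 2.57.

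Its neighbour Birc2 had 10.34 after LPS and 10.75 unstimulated in knockout cells, and 10.13 after LPS and 10.70 unstimulated in wild-type cells. It stood a little lower on both LPS arrays, by 1.32-fold in knockout cells and 1.48-fold in wild-type cells, and passed the 2-fold rule in neither. The adjacent genes of the pair therefore differed in both size and sign of their LPS differences on these arrays.

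Traf1 and Traf2 encode adaptors of TNF receptor family complexes. TRAF2 carries a RING domain and recruits the cIAP ligases, and TRAF1 lacks a RING domain and joins TRAF2 in the same complexes. Traf1 had 11.13 after LPS and 7.10 unstimulated in knockout cells, and 11.11 after LPS and 6.54, below the floor, unstimulated in wild-type cells. It was 16.4-fold higher after LPS in knockout cells, the 19th highest difference, and at least 19.9-fold higher in wild-type cells.

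The other Traf1 probe set had 11.75 after LPS and 4.20 unstimulated in knockout cells, and 11.73 after LPS and 4.36 unstimulated in wild-type cells. Both unstimulated values were below the floor, which gives log2 differences of at least 4.95 in knockout cells and at least 4.94 in wild-type cells. Traf1 thus went with Tnip1 as the pair with the highest LPS differences among the 8 genes.

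Traf2 had 9.58 after LPS and 8.39 unstimulated in knockout cells, and 9.86 after LPS and 8.57 unstimulated in wild-type cells. It was 2.28-fold higher after LPS in knockout cells and 2.44-fold higher in wild-type cells, just past the 2-fold rule. When each array was rescaled to its poly-A spikes, RNAs added as controls, which moved the median of all genes by -0.52 in knockout cells and -0.49 in wild-type cells, the log2 difference of Traf2 was 0.62 and 0.75 and no longer reached 2-fold, and Birc2, at -1.10, was lower by more than 2-fold in wild-type cells. That scaling also changed the split over all genes to 324 higher and 2385 lower in knockout cells, against 634 and 765, and to 348 higher and 2271 lower in wild-type cells, against 693 and 921.

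**Figure D2:**
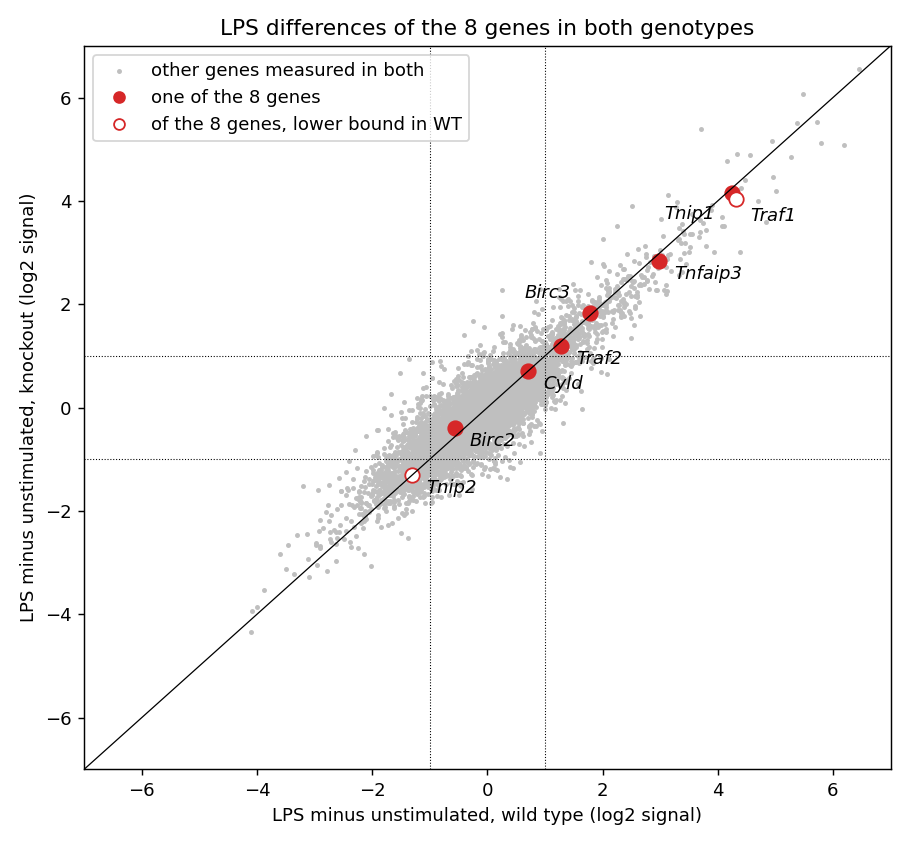
Log2 difference of LPS minus unstimulated in wild-type cells (horizontal axis) and in knockout cells (vertical axis); grey points are all other genes measured in both genotypes, red points the 8 genes, open circles those with a lower bound in wild-type cells. Dotted lines mark 2-fold and the solid line equal differences. The 8 genes lie close to the line, from Tnip2 at -1.30 in knockout cells to Tnip1 at 4.15.

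Markers of some other cell types also differed with LPS. Of 10 measured monocyte and macrophage markers, 5 were higher and 3 lower by 2-fold in each genotype. Of all measured genes, 6.62% were higher and 7.99% lower in knockout cells, and 7.29% and 9.69% in wild-type cells. The summed signal of the 11 matched monocyte and macrophage markers was 46098 after LPS and 26955 unstimulated in knockout cells. In wild-type cells it was 48914 after LPS and 26312 unstimulated. None of these markers was listed at 0 on all arrays, and 1 of 11, Mrc1, was below the floor on all 4. The erythroid markers summed to 2507 after LPS and 4463 unstimulated in knockout cells, and to 1803 after LPS and 3381 unstimulated in wild-type cells. Of these, Car1 was lower after LPS by at least 8.36-fold in knockout and at least 4.05-fold in wild-type cells, Klf1 by at least 2.07-fold and at least 1.78-fold, and Hba-a1 and Alas2 were below the floor on all arrays. The B cell markers, 5 of 7 of them below the floor on all arrays, did not show such a difference in Cd79b, at 0.14 in knockout and -0.02 in wild-type cells. Their summed signal, mostly of values near or under the floor, was 629 after LPS and 600 unstimulated in knockout cells, and 546 after LPS and 694 unstimulated in wild-type cells. The part of other cells in the LPS differences of the 8 genes was not tested.

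The second comparison asks whether loss of miR-125a changed these transcripts. None of the 8 genes was called at 2-fold between knockout and wild-type cells, either after LPS, where 1.24% of all measured genes were in either direction, or unstimulated, where 1.01% were. A count of 0 of 8 is near these background shares, and with 1 pooled array per group the absence of a call does not show that the genotypes are alike. The median log2 difference of the 8 genes was -0.01 after LPS and 0.04 unstimulated, beside -0.01 and 0.00 for all measured genes.

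Tnfaip3, the reported miR-125 target, had a log2 difference of -0.02 after LPS, and 94.6% of measured genes had a larger absolute difference. Unstimulated, Tnfaip3 stood at 0.13 in favour of knockout cells, and 57.6% of measured genes differed more. Its second probe set had -0.12 after LPS and was not measured in unstimulated cells. The sign after LPS depended on the scaling: it was -0.17 with arrays scaled on their medians, which moved the median of all genes by -0.15, and 0.05 after quantile normalization and 0.06 on the poly-A scale. Unstimulated, it was 0.12 to 0.24 under these scalings, the highest on the poly-A scale, which moved the median of all genes by 0.11. The knockout and wild-type arrays thus gave Tnfaip3 values close to each other, and arrays measure transcript and not protein.

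Among the other genes the differences after LPS ran from -0.28 for Traf2 to 0.21 for Birc2, with Tnip1 at -0.06, Birc3 at -0.10, Traf1 at 0.02 and Cyld at 0.00. Tnip2 had a lower bound of 0.05. Unstimulated, they ran from -0.18 for Traf2 to at least 0.30 for Traf1, with Birc3 at -0.16, Tnip1 at 0.05, Birc2 at 0.05, Tnip2 at 0.04 and Cyld at 0.01. Differences as small as those of Tnip1, Cyld and Traf1 after LPS, and of Cyld unstimulated, change sign with shifts that scaling gives to all genes alike. The middle 95% of all measured genes reached from -0.65 to 0.70 after LPS and from -0.62 to 0.62 unstimulated, and the differences that are not lower bounds lay inside it. Without the floor, unstimulated Traf1 was at 0.56 in this probe set and at -0.15 in the other, which lay below the floor on both unstimulated arrays. The second Birc3 probe set went the other way from the first, with 0.50 after LPS and at least 0.66 unstimulated, which lies outside that range, so the sign of the genotype difference of Birc3 depended on the probe set.

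**Figure D3:**
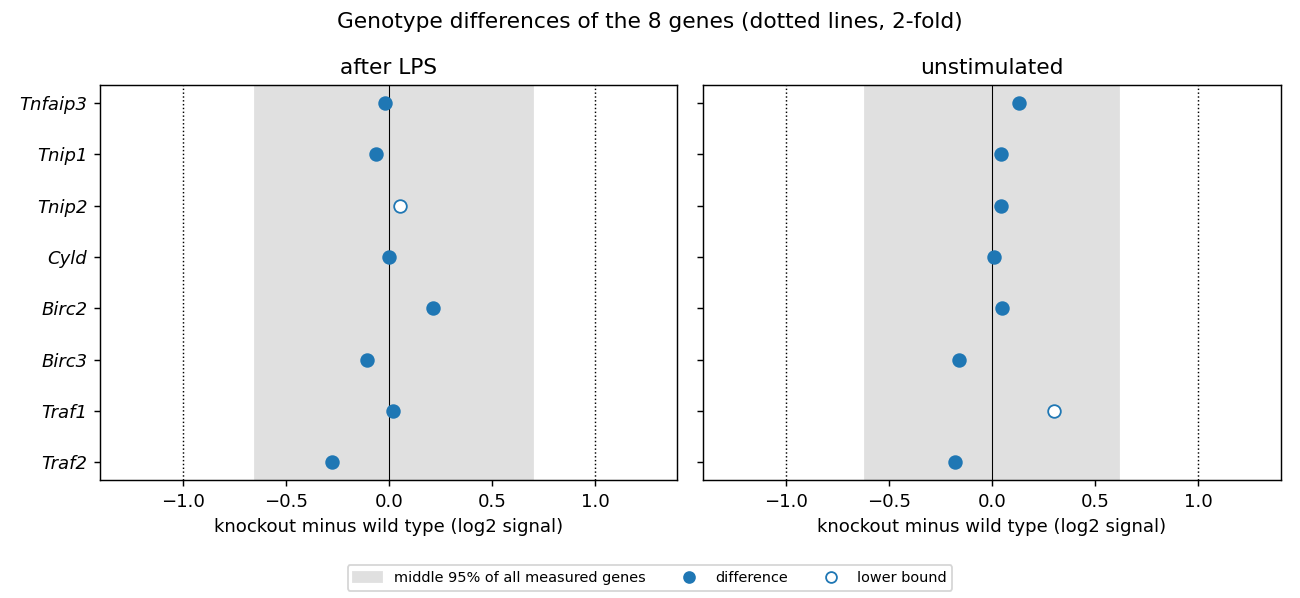
Log2 signal of knockout minus wild type (horizontal axis) for each of the 8 genes after LPS (left) and unstimulated (right); the grey band is the middle 95% of all measured genes, dotted lines mark 2-fold, and open circles are lower bounds. The filled points, of genes measured on both sides, fall inside the band in both panels, between -0.28 and 0.21.

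Other markers differed by genotype beside these values. Of the eosinophil, basophil and mast cell markers, 2 of 4 measured after LPS and 4 of 5 measured unstimulated were lower by 2-fold in knockout cells, and 2 of 7, Fcer1a and Ms4a2, were below the floor on all arrays. Of all measured genes, 0.63% were lower by 2-fold in knockout cells after LPS and 0.66% unstimulated. The summed signal of these 7 markers was 1571 in knockout and 3622 in wild-type cells after LPS, and 1975 in knockout and 4298 in wild-type cells unstimulated. That of 6 erythroid markers was 2507 in knockout and 1803 in wild-type cells after LPS, and 4463 in knockout and 3381 in wild-type cells unstimulated. The neutrophil markers summed to 390408 in knockout and 345026 in wild-type cells after LPS, and 357386 in knockout and 325386 in wild-type cells unstimulated. Their part in the genotype differences of the 8 genes was not tested.

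The genotype and LPS comparisons share the same 4 arrays and are not independent of each other. Set against each other, the LPS differences of knockout and wild-type cells gave no call at 2-fold among the 8 genes, where 2.10% of all measured genes were called. The difference, knockout minus wild type, was -0.15 for Tnfaip3, -0.11 for Tnip1, -0.10 for Traf2, -0.01 for Cyld, 0.05 for Birc3 and 0.16 for Birc2. The values of Traf1, -0.28, and Tnip2, 0.01, rest on wild-type signals set to the floor, and without a floor they were -0.54 and 0.25. Other probe sets gave -0.12 for Tnfaip3, -0.03 and -0.29 for Cyld, -0.16 for Birc3 and 0.01 for Traf1. Those of Tnfaip3, Birc3 and Traf1 rest on unstimulated signals set to the floor. Without a floor those of Tnfaip3, Birc3 and Traf1 were -0.47, -0.45 and 0.17. The sign for Birc3 and Traf1 thus depended on the probe set.

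The other ubiquitin regulators of the pathway were taken from a list of 32 genes, of which 27 were matched to probe sets. They include the linear ubiquitin ligase subunits Rnf31, Rbck1 and Sharpin, the A20 partners Tax1bp1, Itch and Rnf11, the deubiquitinase genes Otulin and Otud7b, and the TRAF6 and TAK1 branch. After LPS, 2 of 27 measured genes were higher and 1 lower by 2-fold in knockout cells, and 1 of 26 was higher and 0 were lower in wild-type cells. Over all measured genes, 6.62% were higher and 7.99% lower in knockout cells, and 7.29% and 9.69% in wild-type cells. The counts of this list thus lie near or below those shares. The median log2 difference of the list was 0.18 in knockout cells and 0.13 in wild-type cells, and on the poly-A scale it turned to -0.39 and -0.40, beside -0.57 and -0.52 for all genes. The counts depended on the scaling as well. On the poly-A scale 0 genes were higher and 5 lower in knockout cells, and 0 higher and 3 lower in wild-type cells. The background moved too: on that scale the lowered share of all genes was 24.37% in knockout and 23.73% in wild-type cells. Both lowered counts of the list lie below it. The raised share was 3.31% and 3.64%. With arrays scaled on their medians the list had 3 raised genes in wild-type cells, beside a raised share of 10.75% for all genes.

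Tradd, the adaptor that links TNF receptor 1 to TRAF2, had log2 signals of 9.59 after LPS and 8.47 unstimulated in knockout cells, and 9.71 after LPS and 8.59 unstimulated in wild-type cells, a log2 difference of 1.12 in both genotypes. Its second measured probe set gave 0.82 in knockout and 0.58 in wild-type cells, short of 2-fold. Tank, a TRAF-binding scaffold of the kinase TBK1, had 12.66 after LPS and 11.43 unstimulated in knockout cells, and 12.39 after LPS and 11.86 unstimulated in wild-type cells, log2 differences of 1.23 and 0.53. A second Tank probe set had 0.00 in knockout and 0.50 in wild-type cells, so the call rests on 1 probe set. Tab3, a subunit of the TAK1 complex that binds ubiquitin chains, stood at -1.17 in knockout and -0.96 in wild-type cells. Between genotypes, 0 of 26 measured genes of this list differed by 2-fold after LPS and 0 of 27 unstimulated. Over all measured genes the shares were 1.24% and 1.01%, so these counts of 0 are near the background and do not show that the genotypes are alike.

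NF-kB subunits and IkB proteins, the targets of this regulation, were counted for comparison. Of 10 measured genes, 4 were higher after LPS by 2-fold in each genotype and 0 were lower, with medians of 0.72 in knockout and 0.96 in wild-type cells. Over all measured genes, 6.62% were higher in knockout and 7.29% in wild-type cells. With arrays scaled on their medians, and when probe sets were averaged, the knockout count of this list stayed 4 and the wild-type count was 6. When probe sets marked as shared, cross-hybridising or of several transcripts were dropped, the count was 3 of 9 in knockout and 3 of 10 in wild-type cells. Genes with only marked probe sets, such as Rela, kept them. On the poly-A scale the medians were 0.15 in knockout and 0.43 in wild-type cells. The 4 genes called in the main setting were Relb, with 4.84 in knockout cells and at least 5.28 in wild-type cells, Nfkb2 with 3.92 and 3.90, Nfkbie with 3.43 and 3.40, and Nfkbib with 1.85 and 2.18. Other probe sets of Nfkb2 (1.60 in knockout, 2.48 in wild-type cells) and Nfkbie (2.71 and 2.96) were higher too, and the other probe set of Nfkbib had 0.27 in wild-type cells. Relb and Nfkb2 form the dimer of the non-canonical pathway, which TRAF2 and the cIAP ligases restrain in resting cells.

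**Figure D4:**
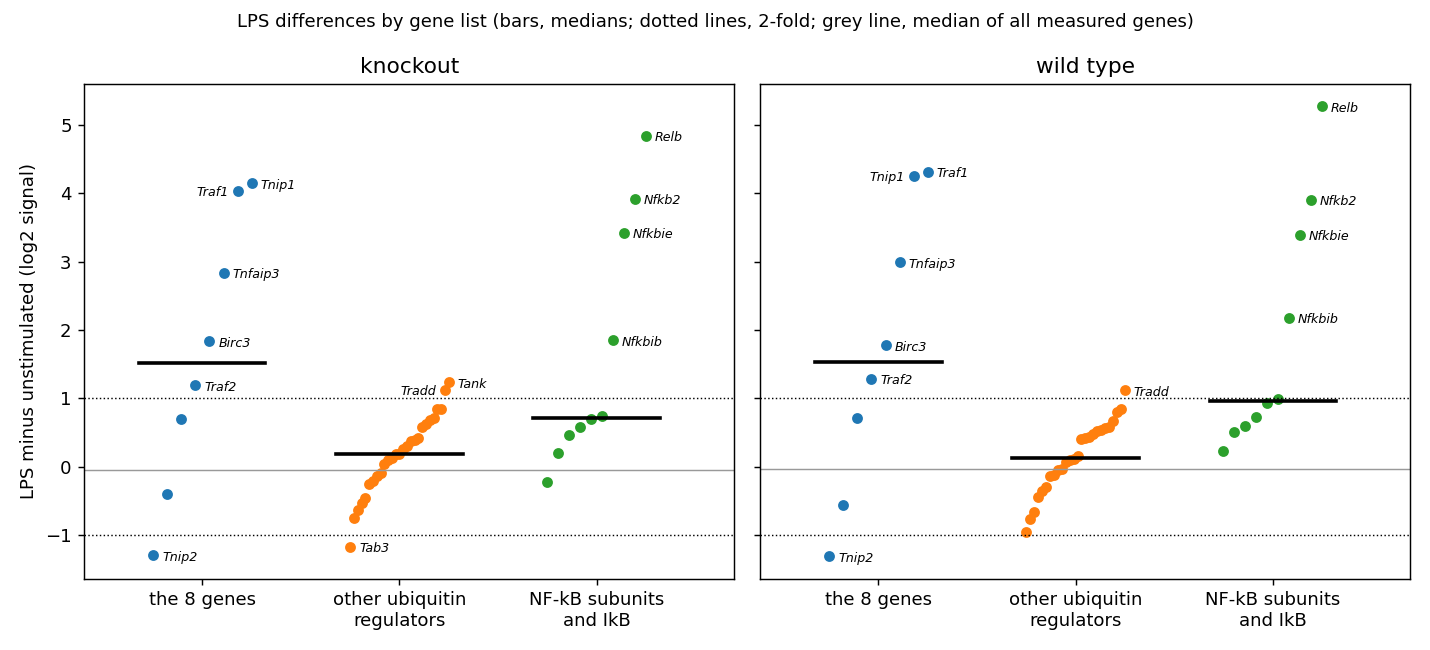
Log2 difference of LPS minus unstimulated (vertical axis) in knockout (left) and wild-type (right) cells for the 8 genes, the other ubiquitin regulators and the NF-kB subunits and IkB proteins; each point is a gene, bars are list medians, dotted lines mark 2-fold and genes past it are named. In both panels 6 of the 8 genes pass 2-fold, against 3 of 27 other regulators in knockout and 1 of 26 in wild-type cells. Of all measured genes, 6.62% are higher and 7.99% lower by 2-fold in knockout cells, and 7.29% and 9.69% in wild-type cells.

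Genes whose 4 signals ran most like those of Tnfaip3 and Tnip1 were found by the root mean square difference of the 4 log2 signals, each gene's own mean subtracted, among 9865 genes above the floor on at least 1 array. Nearest to Tnfaip3 were Pik3ap1, an adaptor of phosphoinositide 3-kinase, at 0.0526, Smox, spermine oxidase, at 0.0683, Cish, a suppressor of cytokine signalling, at 0.0706, Il1rn, the interleukin-1 receptor antagonist, at 0.0808, and Irak2, a kinase of Toll-like receptor signalling, at 0.0821. Their LPS differences ran from 2.82 for Irak2 to 3.05 for Il1rn in knockout cells and from 2.83 for Irak2 to 3.12 for Pik3ap1 in wild-type cells. Nearest to Tnip1 were Sdc4, a proteoglycan of the cell surface, at 0.0871, Ikbke, a kinase related to the IkB kinases, at 0.132, Nfkb2 at 0.152, Cd40, a TNF receptor family member, at 0.176, and Cdc42ep2, an effector of the GTPase Cdc42, at 0.186. Their LPS differences ran from 3.70 for Cdc42ep2 to 4.40 for Ikbke in knockout cells and from at least 3.88 for Cd40 to 4.48 for Ikbke in wild-type cells. This describes likeness over 4 arrays and says nothing of shared control.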

How the data were processed

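RNA of 4 samples was measured on Affymetrix 3′ arrays. Per the submitters' processing notes, MAS5 made the values; the sources used here do not give its version. What the authors deposited is a log2 signal for each probe set on each array. Unlogged, the values averaged 500.003 or 500.004 per array with 2% trimmed from both ends, so a change common to most transcripts is scaled away.

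Genes were assigned from the array's annotation table and checked by Entrez identifier against GRCm38.p6, which changed 0 symbols; 34958 probe sets had 1 symbol and only these were used. A gene took its probe set with the highest mean. Signals under the 60th percentile (log2 6.80, signal 111) were raised to that floor. Comparisons took genes exceeding it on either side, calls began at 2-fold (log2 1), and where 1 side was at the floor the result is a lower bound. No p-value was computed. The calling code was tested on simulated data. Python 3.11.15, pandas 2.3.3 and numpy 2.4.6 were used.

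Named are all 8 genes and genes of the 2 pathway lists that passed 2-fold. The 5 genes nearest to Tnfaip3 and to Tnip1 are also named, with the 8 genes and uncharacterised symbols left out. The genes, lists and rules were chosen with earlier results of these data known. Listed symbols with no single-gene probe set were not analysed here. Alternatives covered array scaling, the floor, the choice of probe set and a 1.5-fold rule.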

Additional observations from a re-analysis of the deposited data

How the results depend on the processing

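Under all 9 alternatives the number of the 8 genes called after LPS was 5 to 7 in each genotype, against 6 in the main setting, and 0 were called between genotypes or between the LPS differences. The shares of all measured genes called after LPS also moved with the setting. In knockout cells 13.80% were higher and 19.23% lower at 1.5-fold, and 3.31% and 24.37% on the poly-A scale. With no floor they were 15.23% and 16.72%. The wild-type shares were 15.80% and 21.04% at 1.5-fold, 3.64% and 23.73% on the poly-A scale, and 14.95% and 18.09% with no floor. Of 312 values of single genes under the 8 alternatives other than the 1.5-fold rule, 309 stayed on the same side of 2-fold, 2 fell short of it (Traf2 in both genotypes) and 1 passed it (Birc2 in wild-type cells), all 3 on the poly-A scale, and 0 reversed a call. With the floor at the 75th percentile Tnip2 was not measured, which left 5 genes called in each genotype. With 1.5-fold in place of 2-fold Cyld was also higher. The LPS difference of Traf1 was at least 2.59 in knockout and at least 2.57 in wild-type cells under that higher floor, and 4.03 and 4.58 with no floor, so its size depends on where the floor is set. The mean over probe sets gave Cyld -0.07 in knockout cells. That mean includes the Cyld probe set that lay below the floor on every array. The measured Cyld probe sets gave 0.30, 0.45 and 0.70 in knockout cells. In the list of other ubiquitin regulators, 0 genes were higher after LPS in either genotype when probe sets were averaged, and likewise after dropping probe sets marked as shared, cross-hybridising or of several transcripts. Genes with only marked probe sets, such as Tnip1, kept them in that setting. With its marked probe set dropped, Birc3 had 2.41 in knockout and at least 2.57 in wild-type cells. Median scaling moved the median of all wild-type LPS differences by 0.23 and gave 1030 genes higher and 620 lower there. No paired analysis was possible because the groups compared share fewer than 2 replicate numbers. Signals near the floor limit Tnip2 and the unstimulated level of Traf1.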

Other observations

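Among the other ubiquitin regulators, Xiap, a further member of the inhibitor of apoptosis family and chosen here after its values were seen, had log2 signals of 12.10 in knockout and 11.51 in wild-type cells after LPS, and 11.81 in knockout and 11.81 in wild-type cells unstimulated, so its genotype difference was 0.60 after LPS and 0.00 unstimulated. The 0.60 lies inside the range given above for the middle of all measured genes after LPS, -0.65 to 0.70. The other measured Xiap probe sets gave LPS differences from -0.45 to 0.99 in knockout and from -0.48 to 0.38 in wild-type cells. Whether those probe sets also show the genotype difference was not tested. The unmeasured Cyld probe set had log2 signals of 1.76 in knockout and 2.41 in wild-type cells after LPS, and 3.51 in knockout and 2.17 in wild-type cells unstimulated, all far below the floor.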
